A study of Mus musculus with 12 samples.

Results

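Pressure overload in wild-type mouse hearts was described from 8 of the 12 libraries of the series, the 4 labelled 6w TAC in NRON WT and the 4 labelled 6w Sham in NRON WT, which were chosen by these labels alone. Transverse aortic constriction (TAC) is surgery that narrows the aortic arch, so that the left ventricle ejects against a raised pressure, and sham surgery is the same operation without the narrowing. All 8 libraries came from wild-type mice of a line studied for the long noncoding RNA gene Nron, and the hearts were taken 6 weeks after surgery. The other 4 libraries came from Nron knockout mice after TAC. They entered the low-count filter, the scaling and the estimate of the spread, but not the contrast. Polyadenylated RNA was enriched from 250 ng of total RNA per library and sequenced with a directional kit. The labels name mouse hearts and give no chamber, strain, sex or age. Whether each replicate was its own animal is not stated. P-values therefore refer only to the spread among libraries of the same group, which may be technical. In edgeR this spread was estimated over the 3 groups together. Of 54146 gene records, 15477 passed the filter on low counts over all 12 libraries and were tested. In a fit of the 8 wild-type libraries alone it was 15163.

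A pressure-loaded ventricle thickens because its muscle cells enlarge, and this growth is known for the return of genes that the ventricle expresses before birth, such as the natriuretic peptides, skeletal actin and the slow myosin heavy chain. The adult heart burns mainly fatty acids in its many mitochondria, and its rhythm depends on potassium, sodium and calcium channels. Under lasting load, fibroblasts lay down matrix and the muscle cells lose part of the fuel-burning and ion channel programme.

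Library totals of the 8 libraries ran from 26288519 to 35945770 counts, and levels are given in CPM, library-size-scaled counts after TMM normalization. Of 8 listed atrial markers, Myl7, Sln and Bmp10 had at most 0.154 CPM in any of the 8 libraries. The ventricular light chain gene Myl2 had 6315 to 6779 CPM in Sham WT and 5485 to 6558 in TAC WT. The other atrial markers follow with the cell types below. Changes are given as the fitted log2 difference TAC WT minus Sham WT and its standard error (SE), and a gene was called changed at an edgeR adjusted p under 0.05. In bulk tissue a lower level can come from fewer cells of a type or from less RNA per cell, and these cannot be told apart here.

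In all, 3051 genes changed, which was 19.7% of those tested, with 1496 higher after TAC (9.67%) and 1555 lower (10%). Most of these changes were small. The median log2 difference was 0.50 among the genes that rose and -0.48 among those that fell. A difference of at least 2-fold was reached by 309 of the genes that rose and 235 of those that fell, and one of at least 4-fold by 78 and 33. The upper tail was longer, with 24 genes raised and 5 lowered by at least 8-fold. The median over all tested genes was -0.00. Without overlap between the CPM values of the groups were 24.7% of all tested genes, 87.0% of the genes that rose and 90.9% of those that fell. Of the 3051 calls, 1808 held under each of 17 other settings and removals of 1 library that gave the gene an adjusted p, and none changed direction in any of them. A call was not counted as lost where an alternative did not test the gene. The filter of 1 CPM in 4 libraries, for example, tested 13080 genes.

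The largest called gains in level were those of stress genes of the ventricle. Acta1 encodes skeletal muscle actin, the actin of the fetal ventricle, and had 312, 693, 465 and 461 CPM in Sham WT libraries 1 to 4 and 7917, 5759, 6531 and 8829.7 CPM in TAC WT libraries 1 to 4. Its log2 difference was 3.91 (SE 0.23, edgeR's adjusted p = 3.82e-07), and the lowest TAC library lay far above the highest sham library. Nppa, the gene of atrial natriuretic peptide, a hormone that lowers blood volume, had 323, 535, 375 and 362 CPM in Sham WT and 3468, 2819.8, 3485 and 4782 CPM in TAC WT (log2 3.19, SE 0.18, edgeR's adjusted p = 2.10e-07). Its neighbour Nppb, the gene of the B-type peptide, had 161, 331, 297 and 358 CPM in Sham WT and 1859.8, 1414, 1865 and 1999 CPM in TAC WT (log2 2.64, SE 0.29). Neither peptide gene overlapped between the groups, and for both the sham library with the lowest level was Sham WT 1.

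Myh7, the gene of the slow myosin heavy chain, had 337, 307, 323 and 400.2 CPM in Sham WT and 2763, 2031, 1017 and 3250 CPM in TAC WT (log2 2.73, SE 0.33, edgeR's adjusted p = 7.72e-05). TAC WT 3 was the lowest of the TAC libraries for Myh7 and still above all 4 sham libraries. Myh6, the gene of the fast adult heavy chain, had 32219, 30453, 29148 and 30913 CPM in Sham WT and 25509, 27489, 23764 and 22693 CPM in TAC WT, a smaller change of -0.30 (SE 0.08, adjusted p = 0.0127). Of the counts on both myosin genes, not corrected for length, Myh7 took 1.04, 0.999, 1.10 and 1.28% in the sham libraries and 9.77, 6.88, 4.10 and 12.5% in the TAC libraries. Myh6 thus stayed the main myosin gene by counts in each library. Between the sarcomeric actins, Acta1 held 2.02, 5.68, 4.41 and 4.29% of the counts on Acta1 and the cardiac actin gene Actc1 in Sham WT and 36.8, 30.8, 33.5 and 38.2% in TAC WT. Actc1 itself was not called (log2 0.19, edgeR adjusted p = 0.235).

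Ankrd1, which encodes a titin-binding repeat protein of the sarcomere and nucleus, had 857, 1766, 1244 and 1434 CPM in Sham WT and 7931, 6326, 6919.6 and 9937 CPM in TAC WT (log2 2.55, SE 0.22). Xirp2, whose product binds actin at the cell junctions of heart muscle, had 637, 651, 567 and 616 CPM in Sham WT and 2530.3, 1714, 1959 and 2905 CPM in TAC WT (log2 1.88, SE 0.17). The groups were apart for both genes. Of 14 tested stress and fetal genes, 10 rose, 1 fell and 3 did not pass, with a median of 2.13. The member that fell was Tnnt1, the slow skeletal troponin T gene, at -0.43 (SE 0.09, edgeR's adjusted p = 0.00437), while the pacemaker channel gene Hcn4 (-0.52), the atrial light chain gene Myl4 (-0.12) and calponin Cnn1 (0.06) were not called. The number that rose was 10 under each removal of 1 library.

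**Figure D1:**
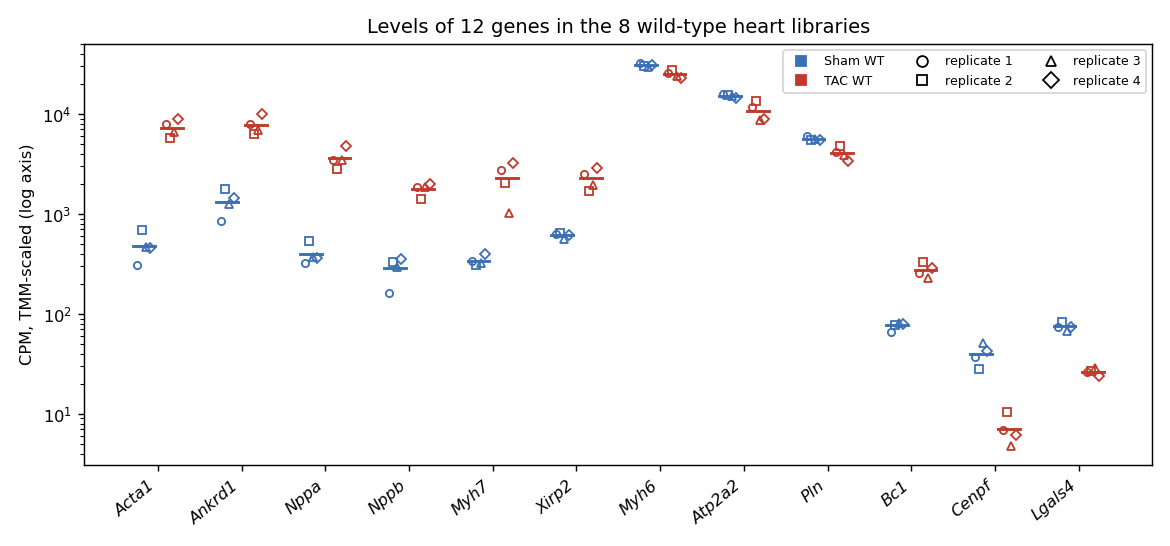
CPM after TMM scaling (log axis) of 12 genes in the 8 wild-type libraries, with 1 point per library, a symbol per replicate number and a line at the group mean. The 6 stress genes at the left and Bc1 lie higher in all 4 TAC WT libraries, and Myh6, Atp2a2, Pln, Cenpf and Lgals4 lie lower.

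The promoters of 5 of these genes are shown because the genes rose together. Each sequence is the 250 bases before the RefSeq transcription start (GRCm38.p6), 5′ to 3′ on the gene's strand. Capitals mark matches to the CArG box, which serum response factor binds, or to the MCAT element CATTCC, which TEAD factors bind, the latter also as its reverse complement GGAATG. The windows are chr8:123894776-123895025 (minus strand) for Acta1, chr19:36119845-36120094 (minus) for Ankrd1, chr4:147985650-147985899 (plus) for Nppb, chr4:148000472-148000721 (plus) for Nppa and chr14:54994627-54994876 (minus) for Myh7.
Acta1: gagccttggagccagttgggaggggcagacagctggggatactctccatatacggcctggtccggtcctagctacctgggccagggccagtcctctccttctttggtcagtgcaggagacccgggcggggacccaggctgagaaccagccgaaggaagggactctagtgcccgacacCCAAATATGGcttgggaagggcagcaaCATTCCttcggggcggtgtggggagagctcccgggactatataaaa
Ankrd1: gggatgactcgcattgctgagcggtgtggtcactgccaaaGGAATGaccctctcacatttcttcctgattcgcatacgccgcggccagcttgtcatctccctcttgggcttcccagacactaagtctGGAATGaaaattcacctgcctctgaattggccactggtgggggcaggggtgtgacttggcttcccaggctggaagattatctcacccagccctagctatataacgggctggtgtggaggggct
Nppb: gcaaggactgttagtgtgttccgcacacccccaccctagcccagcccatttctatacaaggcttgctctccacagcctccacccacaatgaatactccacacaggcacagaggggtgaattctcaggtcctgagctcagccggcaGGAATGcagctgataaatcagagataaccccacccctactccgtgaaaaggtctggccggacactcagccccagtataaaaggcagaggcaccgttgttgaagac
Nppa: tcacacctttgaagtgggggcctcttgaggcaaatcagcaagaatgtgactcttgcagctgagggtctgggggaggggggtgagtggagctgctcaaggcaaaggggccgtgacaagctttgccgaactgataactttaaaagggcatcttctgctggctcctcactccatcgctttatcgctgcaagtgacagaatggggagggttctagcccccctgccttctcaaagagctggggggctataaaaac
Myh7: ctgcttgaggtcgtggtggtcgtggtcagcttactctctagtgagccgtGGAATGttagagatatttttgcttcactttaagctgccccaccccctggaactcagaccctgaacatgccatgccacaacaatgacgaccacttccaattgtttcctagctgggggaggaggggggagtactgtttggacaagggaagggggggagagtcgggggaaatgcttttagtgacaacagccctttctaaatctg
Counted back from the start, Acta1 held a CArG box at bases 73 to 64 and an MCAT element at 46 to 41. Ankrd1 held MCAT elements on the other strand at 123 to 118 and at 210 to 205, Nppb held one on that strand at 105 to 100 and Myh7 one at 201 to 196. Nppa held no match to either motif in this window, and neither did Xirp2 (window chr2:67445752-67446001, plus strand, not printed). RefSeq gives Myh7 another start, whose window from 54994550 to 54994799 on chromosome 14 had no match to them. These are matches of letters and do not show binding.

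The same letters were then counted across the genome. A 300-base window, 250 bases before to 50 after the start, was matched for 10542 of the 13460 tested protein-coding genes, and both strands were searched. A gene with several starts had a window for each and counted once if any of them held the motif. Shares over all RefSeq windows are of windows instead, so they are not directly comparable with the shares of genes. MCAT elements stood in a window of 14.6% of these genes, of 15.8% of those that rose and of 18.3% of those that fell. Among genes that rose by at least 2-fold it was 24.2% (48 of 198, 95% Wilson interval 18.8 to 30.7%). Among genes that fell by at least 2-fold it was 20% (23 of 115, 13.7 to 28.2%), an interval that overlaps the former. Of all 32851 RefSeq windows 14.7% held the element. The AP-1 motif TGANTCA, which Fos and Jun proteins bind, was held by 6.32% of these genes, 8.57% of those that rose and 5.71% of those that fell. For changes of at least 2-fold it was 14.6% of genes that rose (29 of 198, 10.4 to 20.2%) and 7.83% of genes that fell (9 of 115, 4.17 to 14.2%). Of all windows 7.81% held the motif. The MEF2 site, bound by the muscle transcription factors of that name, was held by 1.65% of these genes, 1.91% of those that rose and 3.28% of those that fell. Of all windows 1.86% held the site. For changes of at least 2-fold it was 2.02% of genes that rose (4 of 198, 0.788 to 5.08%) and 3.48% of genes that fell (4 of 115, 1.36 to 8.60%). The CArG box was held by 1.57% of these genes, 2.10% of those that rose (1.40 to 3.13%) and 1.12% of those that fell. For changes of at least 2-fold it was 1.52% of genes that rose (3 of 198, 0.517 to 4.36%) and 1.74% of genes that fell (2 of 115, 0.478 to 6.12%). These shares were not tested, and the intervals cover counting error only. Other motifs among the 12 searched are not given here.

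The change in single genes moved a measurable part of the whole RNA pool. Summed over genes, 8.72 percentage points of all counts moved from genes with a lower share to genes with a higher share. The 68 genes with the largest gains made up 50% of the gain, and the 68 with the largest losses made up 50% of the loss. Called genes took 70% of the gain and 67.0% of the loss. Shares of counts also scale with transcript length, so they rank the pool of reads and not of molecules.

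Acta1 went from 0.0476 to 0.737% of counts and Ankrd1 from 0.131 to 0.789%, and these 2 genes took 15.5% of the gain. Next came Nppa with a gain of 0.330 percentage points, Actc1 (not called) with 0.204, Myh7 with 0.196, Xirp2 with 0.170, Nppb with 0.153 and Des, the gene of the intermediate filament desmin, with 0.133. The 10 largest gains made up 31.6% of the total. On the other side, genes of the mitochondrial genome took 34.9% of the loss, led by mt-Co1 (-0.692 percentage points), mt-Nd5 (-0.587) and mt-Cytb (-0.555), all subunits of the respiratory chain. Of these only mt-Nd5 held its call in each alternative, at a log2 difference of -0.42 (SE 0.09, edgeR adjusted p = 0.00472). The mt-Co1 call (-0.23, edgeR adjusted p = 0.0423) was lost in 9 and the mt-Cytb call (-0.23, edgeR adjusted p = 0.0426) in 8 of the 17 alternatives. The largest losses from nuclear genes were those of Myh6 (3.02 to 2.51% of counts), the calcium pump gene Atp2a2 (1.5 to 1.08%), phospholamban Pln, which restrains that pump (-0.146 percentage points), and the lipase Lpl, which frees fatty acids for the heart (-0.124).

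**Figure D2:**
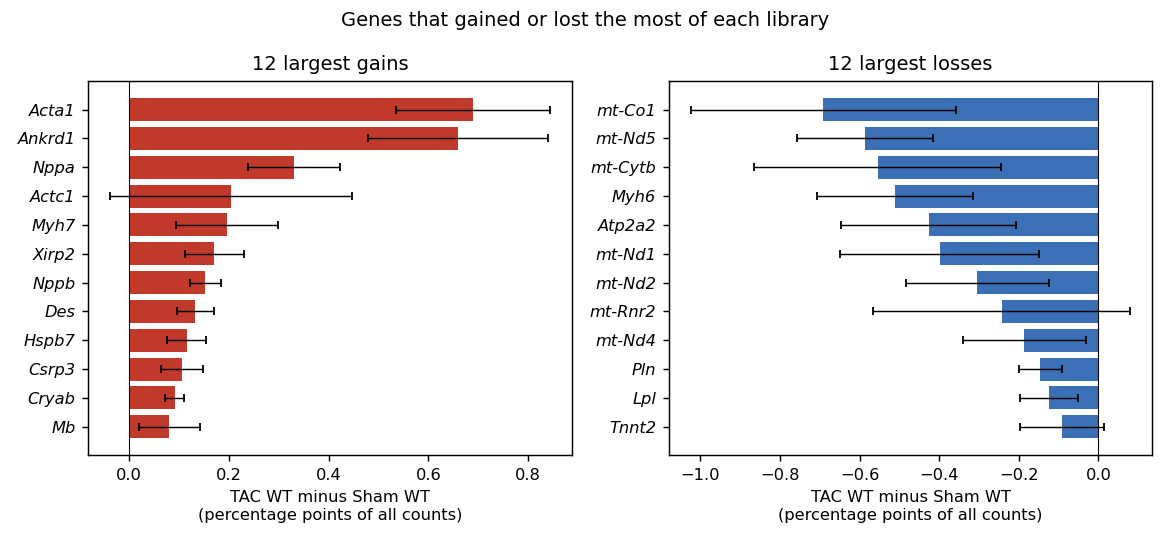
Difference in the mean share of all counts, in percentage points, for the 12 genes with the largest gains and the 12 with the largest losses. Bars are TAC WT minus Sham WT, and whiskers are the SDs of both groups combined as the square root of the summed squares (n = 4 each). Acta1 and Ankrd1 gained the most, and 7 of the 12 largest losses were mitochondrially encoded genes.

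The libraries became less concentrated after TAC. The 10 highest genes of a library took 26.7% ± 0.57 of counts in Sham WT and 23.1% ± 1.19 in TAC WT, and mitochondrially encoded genes took 21.5% ± 0.91 and 18.5% ± 1.21 (SD, n = 4). Stress genes went from 0.390% ± 0.065 to 2.75% ± 0.64 and collagens from 0.262% ± 0.016 to 0.406% ± 0.081. No library of one group overlapped with the other for these 4 shares, and each gave an exact two-sided permutation p of 0.0286, the smallest that 4 against 4 allows, or 0.0449 after Benjamini-Hochberg adjustment over 11 library values. The stress and collagen lists were chosen with earlier results of these data known, so their p-values are no independent support. The share of sarcomere genes, 10.2% ± 0.52 in Sham WT and 10.1% ± 0.17 in TAC WT, did not differ beyond the spread (adjusted exact permutation p = 0.971). Nor did the share of long noncoding genes, at 0.936% ± 0.023 and 0.900% ± 0.049 (adjusted exact permutation p = 0.314). The share of the 50 highest genes went from 39.9% ± 0.17 to 37.6% ± 0.75 and that of the 500 highest from 61.2% ± 0.20 to 59.8% ± 0.59. With mitochondrially encoded genes left out of the total, the TAC WT minus Sham WT difference was -1.05 percentage points for the 10 highest genes, 0.0971 for the 50 highest and 0.0638 for the 500 highest, so the lower concentration did not hold for the latter 2.

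Members of 32 lists of pathway genes were then counted against the background of 9.67% up and 10% down. The lists with the largest shares of raised genes were those of matricellular genes, collagens, stress genes, protein folding and immediate early genes, and those with the largest shares of lowered genes were fuel oxidation and potassium channels.

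**Figure D3:**
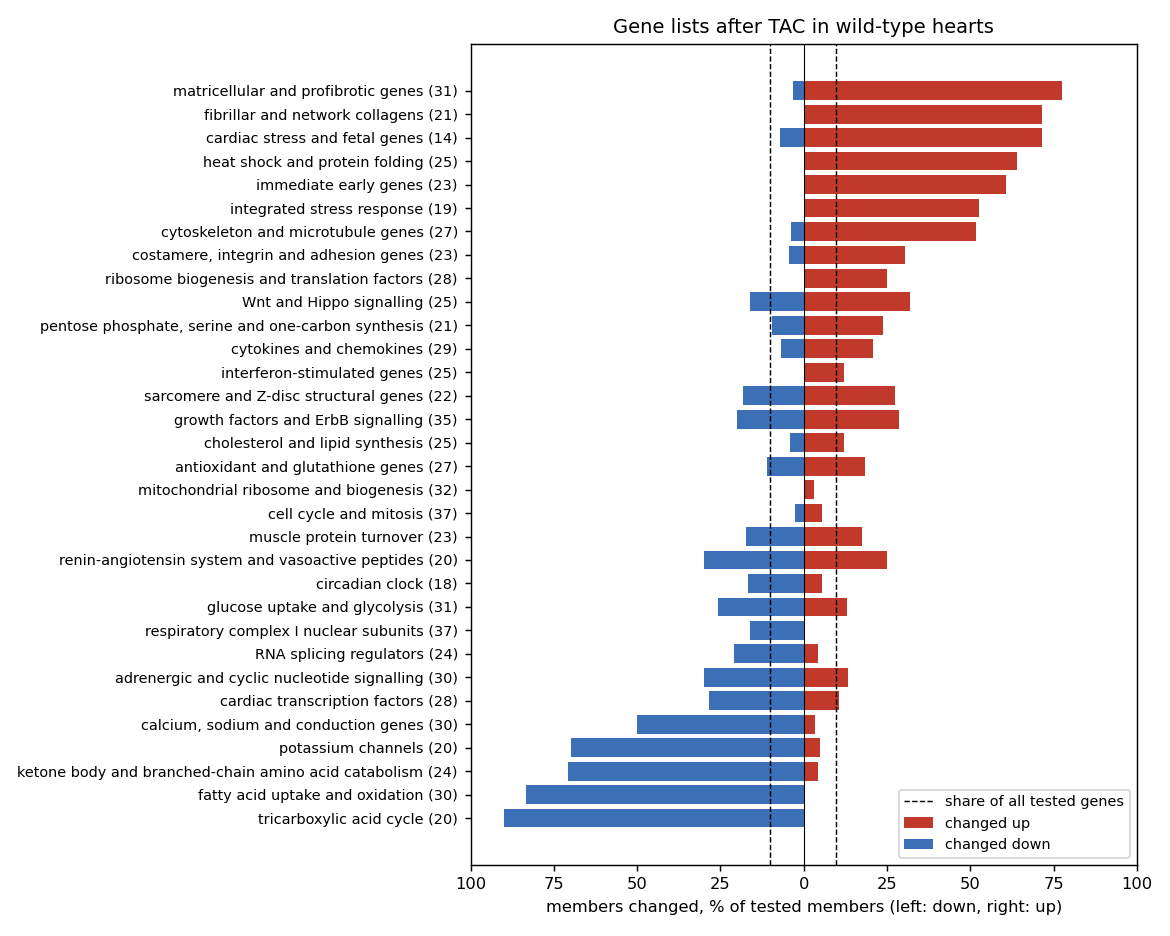
Share of the tested members of each of 32 gene lists that rose (right) or fell (left), in percent, with the number of tested members in brackets. Dashed lines mark the shares over all tested genes, 9.67% up and 10% down. The tricarboxylic acid cycle list had the largest share of lowered members, and the matricellular list the largest share of raised ones.

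Matrix genes rose broadly. Of 31 matricellular and profibrotic genes, 24 rose and 1 fell (median 1.03), and of 21 collagens 15 rose and none fell (median 0.59), counts of raised genes that ran from 17 to 25 and from 11 to 19 when 1 library was left out. No collagen of the list fell with DESeq2 or at an unadjusted p under 0.05 either. Postn, the gene of periostin, a matrix protein of activated fibroblasts, had 39.4, 31.8, 33.6 and 34.7 CPM in Sham WT and 237, 108, 146 and 278 CPM in TAC WT (log2 2.46, SE 0.28, edgeR's adjusted p = 5.13e-05). Tgfb2, one of the transforming growth factor beta ligands, went from 13.1, 13.9, 14.5 and 14.7 CPM in Sham WT to 76.4, 45.7, 50.3 and 81.2 in TAC WT (log2 2.17, SE 0.17). Ltbp2, a microfibril protein, had 2.29 to 3.29 CPM in Sham WT and 28.3, 13, 16.8 and 37.4 in TAC WT (log2 3.10, SE 0.35). For all 3 genes TAC WT 2 was the lowest TAC library and TAC WT 4 the highest, and no TAC library reached down to the sham range.

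Among collagens, Col8a1, a short network collagen, rose by 1.75 (SE 0.22), with 28.9 to 36.9 CPM in Sham WT and 76.2 to 156 in TAC WT. The fibrillar chains rose less, with Col1a1 at 0.78 (SE 0.15) and Col3a1 at 0.78 (SE 0.17), as did the basement membrane chain Col4a1 at 0.55 (SE 0.10). Mfap4 and Mfap5, which encode microfibril-associated proteins, rose by 1.995 and 1.52, and P4ha1, a prolyl hydroxylase that stabilises collagen, by 0.89 (SE 0.10). Timp1, an inhibitor of matrix proteases, had 11.9, 9.79, 6.38 and 56.1 CPM in TAC WT against 2.06 to 3.51 in Sham WT. The groups did not overlap, but the size of the rise leaned on TAC WT 4. Its call (log2 2.95, edgeR adjusted p = 0.0154) was lost without that library, where the log2 difference was 1.80 (edgeR adjusted p = 0.0661). With 1 surrogate variable the difference was 1.42, and the call held (edgeR adjusted p = 0.00115).

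The markers of fibroblasts, some of which (such as Col1a1) are also on the matrix lists, moved beside these matrix genes. Their summed level was 1929 to 2174 CPM in Sham WT and 2126 to 2541 in TAC WT over 14 markers, of which 6 rose, 1 fell and 7 did not pass. The 11 markers of activated fibroblasts, 7 of which rose, summed to 319 to 368 CPM in Sham WT and 521 to 775 in TAC WT. Of these 7, all but Meox1 are also on the matricellular list, so the 2 counts are not independent. Fn1, Ddah1, Fap and Acta2 were not called. Scara5, a marker of resting fibroblasts, was the one that fell, from between 19.2 and 30.1 CPM to between 5.47 and 13.2 CPM (log2 -1.28, SE 0.22). Whether the matrix change follows the number of fibroblasts or their RNA per cell was not tested. Of 12 endothelial markers 1 rose and none fell (none also with DESeq2 or at an unadjusted p under 0.05), with summed levels of 2318 to 2675 CPM in Sham WT and 2498 to 3100 in TAC WT. None of 15 macrophage markers was called by edgeR, against 2 higher and 1 lower at an unadjusted p under 0.05 and 1 lower with DESeq2, and their sums of 239 to 294 CPM in Sham WT and 223 to 324 in TAC WT overlapped, although without TAC WT 2 the number that rose was 5. Without TAC WT 2 also 3 endothelial markers rose.

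The contractile apparatus changed in both directions. Of 22 sarcomere and Z-disc genes 6 rose, 4 fell and 12, among them titin Ttn, Myl2 and Tnnt2, did not pass. Xirp1, an actin-binding relative of Xirp2, rose by 1.42 (SE 0.14), the Z-disc linker Flnc by 1.15 (SE 0.14), the stretch-linked LIM protein gene Csrp3 by 0.84 (SE 0.11) and Des by 0.64 (SE 0.07). Cardiac troponin I, encoded by Tnni3, fell by 0.36 (SE 0.07), and Nebl by 0.36 (SE 0.08). Outside the list, Synpo2l, a Z-disc protein gene, had 183, 205, 175 and 205 CPM in Sham WT and 1086, 519, 668 and 1009 CPM in TAC WT (log2 2.09, SE 0.20, edgeR's adjusted p = 1.45e-05). Enah, which lengthens actin filaments, had 183, 186, 183 and 179 CPM in Sham WT and 604, 442, 478 and 532 CPM in TAC WT (log2 1.49, SE 0.11). The 4 sham values of Enah lay close together, and all 4 TAC values lay well above them.

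Of 27 cytoskeleton and microtubule genes 14 rose and 1 fell (median 0.29). The count of 14 dropped to 9 without Sham WT 2 and to 9 without TAC WT 1. Moesin Msn rose by 0.59 (SE 0.14) and the intermediate filament genes Vim by 0.46 and Synm by 0.48, while ezrin Ezr, a relative of moesin, fell from between 57.5 and 63.5 CPM to between 35.7 and 38.7 CPM (log2 -0.73, SE 0.09). The integrin subunit gene Itga5 rose by 0.73, talin Tln1 by 0.54 and zyxin Zyx by 0.50, among 7 of 23 adhesion genes that rose and 1 that fell, a count of 7 that was 4 without TAC WT 4.

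Chaperone genes rose in part. Of 25 heat shock and folding genes 16 rose and none fell (median 0.54), with 1 lower at an unadjusted p under 0.05 and none with DESeq2. Those that rose were small heat shock proteins and cytosolic chaperones: Cryab, the crystallin that protects desmin filaments, had 1407, 1253, 1318 and 1330.4 CPM in Sham WT and 2124, 2027, 2355 and 2271 CPM in TAC WT (log2 0.73, SE 0.07, edgeR's adjusted p = 1.44e-05), Hspb1 rose by 1.15, Hspb6 by 0.72 and Hsp90aa1 by 1.11. The chaperones of the endoplasmic reticulum and the mitochondrion were among the 9 that did not pass, with Hspa5 at -0.10 (edgeR adjusted p = 0.514), Calr at 0.12 (0.288) and Hspd1 at -0.12 (0.255). Hspa1a had 1.84, 2.78, 1.49 and 3.04 CPM in Sham WT and 11.7, 19.5, 39.4 and 17.9 CPM in TAC WT (log2 3.28, SE 0.40), with its highest value in TAC WT 3. Its neighbour Hspa1b is a near-identical copy, so reads may be split between them. Hsp90aa1, Hspb1, Atp2a2, Etv1, Etv5, Grk5, Kcnj14, Anxa11, Ptger4, Myl1, mt-Co1 and mt-Nd5 also have annotated near-identical copies. Their values are uncertain to that extent.

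Of 19 integrated stress response genes 10 rose and none fell (median 0.22), nor did any with DESeq2 or at an unadjusted p under 0.05. Gdf15, a hormone released by stressed cells, had 0.535, 1.55, 1.03 and 0.917 CPM in Sham WT and 12.3, 7.6, 10.7 and 16.5 CPM in TAC WT (log2 3.53, SE 0.36, edgeR's adjusted p = 2.50e-05). Of the response's transcription factors, Atf3 rose by 2.21 (SE 0.25) and Atf4 by 0.61 (SE 0.09), and Atf5 (0.21) and Ddit3 (0.13) did not pass. The transfer RNA charging enzymes Nars and Sars rose by 0.30 and 0.22. Of 21 genes of the pentose phosphate, serine and one-carbon pathways 5 rose and 2 fell: the amino acid transporter Slc7a5 (log2 0.82), Mthfd2 (0.90) and Aldh18a1 (0.42) rose while Aldh1l2 fell by 1.03 (SE 0.13). The 2 that fell became 1 when any library but TAC WT 1 was left out. The stress response genes Trib3 (-0.21) and Chac1 (-0.22) did not pass.

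Of 23 immediate early genes 14 rose and none fell (median 0.68), with 14 to 18 that rose without 1 library and none that fell with DESeq2 or at an unadjusted p under 0.05. Ier5 rose by 1.24 (SE 0.14), Nr4a3 by 1.55 (SE 0.20), Maff by 1.04 (SE 0.17) and the AP-1 member Fosl2 by 1.03 (SE 0.19). Fos had 15.3, 62.4, 20.7 and 10.5 CPM in Sham WT and 36.5, 30.5, 56 and 43 CPM in TAC WT, so the groups overlapped, and neither Fos (edgeR adjusted p = 0.385) nor Egr1 (edgeR adjusted p = 0.513) was called. These genes and the inducible Hspa1a are also known to respond to handling of tissue. Of the 12 tested markers of handling and RNA quality 3 rose (Hspa1a, Hspa1b and Jun) and none fell. At an unadjusted p under 0.05, 1 was lower, and none with DESeq2. The markers summed to 4943 to 5367 CPM in Sham WT and 4396 to 5403 in TAC WT. Malat1 made up most of these sums, at 0.334% of counts in Sham WT and 0.298% in TAC WT. The median log2 difference of the markers from their sham means was -0.061 to 0.063 in Sham WT and 0.083 to 0.255 in TAC WT. The part of handling in the result was not tested.

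Growth factors moved in both directions. Of 35 tested growth factor and ErbB genes 10 rose and 7 fell. Hbegf, an EGF receptor ligand, had 18, 20.6, 21.5 and 20 CPM in Sham WT and 98, 48.4, 75.1 and 85.7 CPM in TAC WT (log2 1.94, SE 0.22, edgeR's adjusted p = 4.75e-05). Angpt1, a ligand that steadies blood vessels, went the other way, from 26.7, 39.7, 39.2 and 37.3 CPM in Sham WT to 7.63, 11.5, 7.29 and 6.25 CPM in TAC WT (log2 -2.13, SE 0.18, edgeR's adjusted p = 8.10e-06). In the vasoactive list the peptide gene Edn3 rose by 2.01 (SE 0.24). Tnfrsf12a, the gene of the receptor of the cytokine TWEAK, rose by 1.52 (SE 0.22).

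Fuel oxidation fell as a block of small changes. Of 30 genes of fatty acid uptake and oxidation 25 fell and none rose (median -0.37), and the count stayed at 22 to 25 without 1 library. At an unadjusted p under 0.05, 1 member was higher, and none with DESeq2. Slc27a1, a fatty acid transporter, had 213, 217, 196 and 211 CPM in Sham WT and 112, 128, 116 and 102 CPM in TAC WT (log2 -0.87, SE 0.07, edgeR's adjusted p = 8.10e-06). Ech1, an isomerase of unsaturated fatty acids, had 1094, 1214, 1092 and 1159 CPM in Sham WT and 682, 790.2, 751 and 659 CPM in TAC WT (log2 -0.66, SE 0.07). Dehydrogenases and thiolases fell by similar amounts, Acadm by 0.46, Acadvl by 0.35, Hadha by 0.45 and Acaa2 by 0.66. All 4 TAC values lay below all 4 sham values for each of these 6 genes. The 5 members that did not pass were the muscle carnitine transferase Cpt1b (-0.20), the uptake protein Cd36 (-0.17), the binding protein Fabp3 (0.13), the dehydrogenase Acadl (-0.14) and the kinase Pdk4 (0.59).

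Of 20 tricarboxylic acid cycle genes 18 fell and none rose (median -0.26), nor did any rise with DESeq2 or at an unadjusted p under 0.05, with Sdha at -0.42 (SE 0.07), citrate synthase Cs at -0.41 (SE 0.08) and Idh2 at -0.39 (SE 0.07). Only 11 of the 18 were called without Sham WT 1, the sham library with the highest sum of these genes. Of 24 genes that break down ketone bodies and branched-chain amino acids 17 fell, among them Ppm1k, a phosphatase that activates the branched-chain dehydrogenase, with 90.5 to 109 CPM in Sham WT and 44.1 to 70.1 in TAC WT (log2 -0.90, SE 0.12). The single member that rose was Bdh1, a ketone body dehydrogenase, from between 155 and 223 CPM to between 229 and 360.1 CPM (log2 0.65, SE 0.16, edgeR's adjusted p = 0.00959), and Oxct1, which lets the heart burn ketone bodies, was at -0.12 (edgeR adjusted p = 0.31).

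Not all mitochondrial genes fell to that extent. Of 37 nuclear genes of respiratory complex I 6 fell and none rose (median -0.14), with 1 higher by DESeq2 and 1 at an unadjusted p under 0.05. This count moved with the setting, from 2 with 1 surrogate variable or without the low-count filter, and 2 or 3 without any single one of Sham WT 1 to 4 or TAC WT 1, 2 or 4, to 15 without TAC WT 3, 12 with DESeq2 or after removal of GC and length trends, and 18 with limma voom. Of 32 genes of the mitochondrial ribosome and of mitochondrial DNA upkeep 1 rose and none fell (median -0.06), with 4 lower at an unadjusted p under 0.05 and none with DESeq2. Of the transcription regulators of fuel use, Rxrg fell by 0.48 (SE 0.09), Ppargc1a by 0.43 (SE 0.13) and Esrra by 0.27 (SE 0.07), and Ppara was at -0.09 (edgeR adjusted p = 0.838). The call was lost for Ppargc1a in 9 and for Esrra in 5 of the 17 alternatives, without Sham WT 1 or 2 or TAC WT 1 or 4 for both and without Sham WT 3 or 4 or TAC WT 3 for Ppargc1a.

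Glucose use moved in both directions. Of 31 glucose uptake and glycolysis genes 4 rose and 8 fell (median -0.00), counts that were 2 up without Sham WT 3, Sham WT 4 or TAC WT 1 and 5 down without Sham WT 1 or TAC WT 4 or with 1 surrogate variable. Pfkp, the platelet form of phosphofructokinase, had 90.4, 88.5, 77.4 and 76.4 CPM in Sham WT and 199, 163, 155 and 209 CPM in TAC WT (log2 1.13, SE 0.12, edgeR's adjusted p = 4.14e-05), while the muscle form Pfkm fell by 0.35 (SE 0.08). Pfkfb1, an enzyme that sets the level of the activator of phosphofructokinase, had 20.8, 21.2, 20.3 and 19 CPM in Sham WT and 4.02, 5.88, 4.64 and 3.27 CPM in TAC WT (log2 -2.19, SE 0.20). Outside the list, the gluconeogenic phosphatase gene Fbp2 fell by 1.13 (SE 0.17).

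Ion channel genes fell widely. Of 20 potassium channel genes 14 fell and 1 rose (median -0.53). Kcnj3 encodes a subunit of the acetylcholine-gated channel and had 93.5, 76.7, 83.3 and 75.8 CPM in Sham WT and 29.7, 43.3, 34 and 24 CPM in TAC WT (log2 -1.33, SE 0.15, edgeR's adjusted p = 4.75e-05). Its partner subunit gene Kcnj5 fell by 0.89 (SE 0.14), and the repolarising channel genes Kcnh2 and Kcnq1 by 1.03 (SE 0.19) and 0.68 (SE 0.11). Of the transient outward current, Kcnd2 (log2 -0.66) and the partner gene Kcnip2 (-0.87) both fell (for Kcnip2, SE 0.23, edgeR's adjusted p = 0.0163). For these 6 genes no TAC library reached the sham range. The member that rose, Kcnk2 (log2 0.55, edgeR adjusted p = 0.0446), lost its call in 8 of the 17 alternatives. Outside the list, the inward rectifier Kcnj14 rose from between 0.238 and 0.344 CPM to between 0.827 and 2.06 CPM (log2 2.17, SE 0.38).

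Of 30 genes of calcium and sodium handling and conduction 15 fell and 1 rose (median -0.46). Scn10a, a sodium channel, had 4.64, 3.61, 4.86 and 3.37 CPM in Sham WT and 0.437, 1.11, 0.679 and 0.441 CPM in TAC WT (log2 -2.62, SE 0.25, edgeR's adjusted p = 1.28e-05), and Cntn2, a marker of the conduction system, had 6.39 to 11.1 CPM in Sham WT and 0.945 to 2.52 in TAC WT (log2 -2.25, SE 0.26). Transcription factors of conduction tissue fell as well, Etv1 by 0.78 (SE 0.12), Tbx5 by 0.94 (SE 0.15) and Irx3 by 0.46 (SE 0.09). Atp2a2 had 15943, 15478, 15165 and 14463 CPM in Sham WT and 11798, 13388, 8709.6 and 8827 CPM in TAC WT (log2 -0.51, SE 0.12, edgeR's adjusted p = 0.00723), with TAC WT 2 closest to sham. The core calcium release and entry genes Ryr2 (-0.27), Casq2 (0.02), Cacna1c (-0.01) and Slc8a1 (0.05) were not called.

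Receptors of catecholamines and angiotensin fell with them. Adra1b, the alpha-1B receptor gene, had 51.1, 44.8, 35.3 and 36.3 CPM in Sham WT and 17.4, 17.6, 15.9 and 18.7 CPM in TAC WT (log2 -1.27, SE 0.11, edgeR's adjusted p = 8.10e-06), the beta-1 receptor gene Adrb1 fell by 0.75 (SE 0.09) and the angiotensin receptor gene Agtr1a by 1.03 (SE 0.11). Grk5, a kinase that turns such receptors off, rose by 0.53 (SE 0.13). The adrenergic list had 4 members that rose and 9 that fell of 30, and the renin-angiotensin list 5 that rose and 6 that fell of 20.

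**Figure D4:**
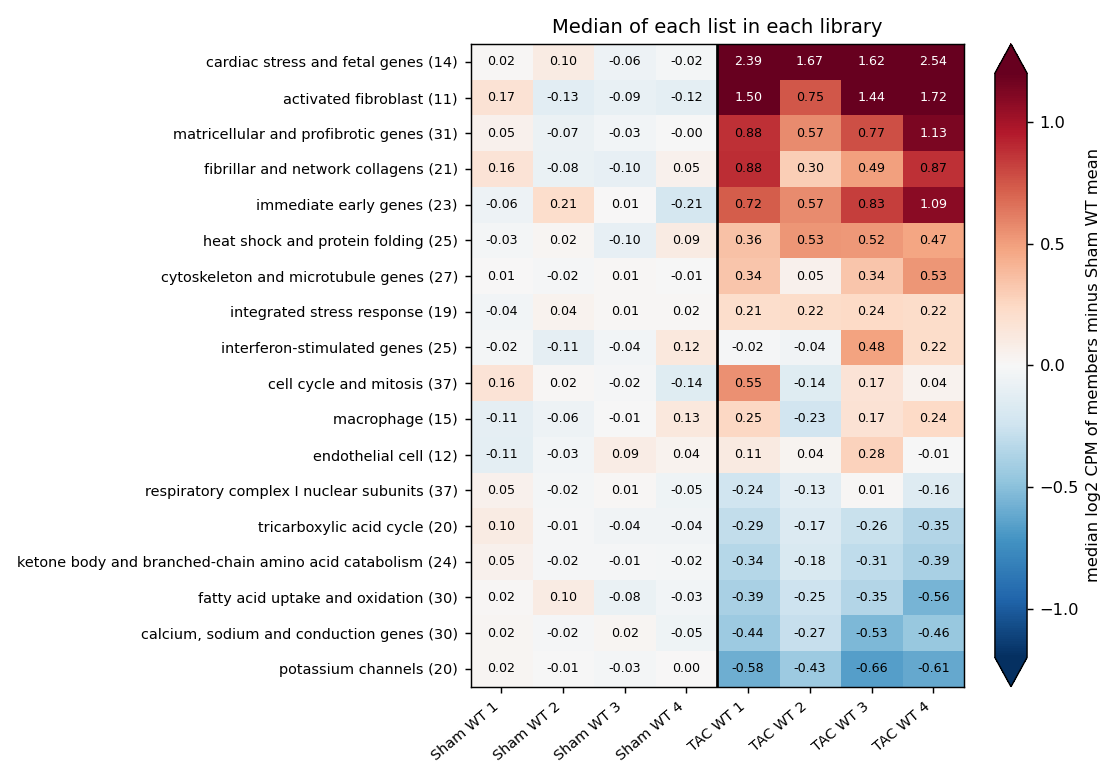
Median log2 CPM of the members of 18 lists in each of the 8 wild-type libraries, as the difference from each gene's Sham WT mean. Stress, matrix and folding lists are raised and fatty acid, cycle and channel lists lowered in all 4 TAC WT libraries, with TAC WT 2 closest to sham for matrix, fatty acid and potassium channel genes, while interferon, cell cycle, macrophage and endothelial medians have no common sign across the TAC WT libraries.

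Other programmes had fewer calls. Of 37 cell cycle and mitosis genes 2 rose and 1 fell, and the 2 became 0 without Sham WT 1, 2 or 4 or TAC WT 1 or 4, 1 without TAC WT 3 and 4 without TAC WT 2. Mki67, a marker of dividing cells, had 4.52, 4.44, 3.57 and 2.42 CPM in Sham WT and 7.93, 2.49, 5.67 and 3.49 CPM in TAC WT, so the groups overlapped. The gene that fell was Cenpf, which encodes a centromere protein and had 37, 28, 51.3 and 42.7 CPM in Sham WT and 6.83, 10.3, 4.75 and 6.1 CPM in TAC WT (log2 -2.50, SE 0.25, edgeR's adjusted p = 1.93e-05). Of 25 interferon-stimulated genes 3 rose and none fell (none also with DESeq2 or at an unadjusted p under 0.05), and the 3 became 1 without Sham WT 1, TAC WT 3 or TAC WT 4 and 5 without TAC WT 2. Of 25 cholesterol and lipid synthesis genes 3 rose and 1 fell, and the 3 became 1 without Sham WT 1 or 2 or TAC WT 1 or 4 and 5 without TAC WT 2. Of 29 cytokines and chemokines 6 rose and 2 fell, and the 6 became 13 without TAC WT 2, 12 with limma voom or without the low-count filter and 11 with DESeq2.

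The remaining pathway lists were mixed. Of 25 Wnt and Hippo genes 8 rose and 4 fell, and the 8 became 5 without Sham WT 2, without TAC WT 1 or with 1 surrogate variable. Frzb, a secreted Wnt antagonist gene, had 3.66, 3.38, 3.37 and 2.93 CPM in Sham WT and 15.6, 8.43, 9.71 and 14.6 CPM in TAC WT (log2 1.85, SE 0.20), and Lgr6, a receptor that strengthens Wnt signals, had 74.4, 75.6, 63 and 65.3 CPM in Sham WT and 32.9, 36.7, 24.9 and 37.5 CPM in TAC WT (log2 -1.08, SE 0.14). Neither gene overlapped between the groups. Of 28 cardiac transcription factors 3 rose and 8 fell, and the 8 became 5 without Sham WT 1, Sham WT 2, TAC WT 1 or TAC WT 4 or with 1 surrogate variable. Of 28 genes of ribosome biogenesis and translation 7 rose and none fell, with 1 lower at an unadjusted p under 0.05 and none with DESeq2, and the 7 became 4 without Sham WT 4 or with 1 surrogate variable and 3 without TAC WT 4, while 1 gene fell without TAC WT 2. Of 23 muscle protein turnover genes 4 rose and 4 fell, and the 4 that fell became 1 without Sham WT 1, without TAC WT 4 or with 1 surrogate variable, 2 without Sham WT 2 or TAC WT 3, 7 with limma voom and 8 with DESeq2. Of 27 antioxidant genes 5 rose (8 without TAC WT 3) and 3 fell (5 without TAC WT 2, 6 with limma voom). Of 18 circadian clock genes 1 rose (Bhlhe40, a repressor of the clock) and 3 fell, and the 1 was lost without Sham WT 1, 2 or 4 or TAC WT 1 or 4. The 3 clock genes that fell became 1 when any sham library, TAC WT 3 or TAC WT 4 was left out, 0 without TAC WT 1, 1 with DESeq2, and 7 in a fit of the 8 wild-type libraries alone. Of 24 splicing regulators 1 rose (none once any sham library, TAC WT 1 or TAC WT 4 was left out) and 5 fell, which became 3 without Sham WT 1, 2 or 3 or TAC WT 1 or 3.

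Most markers of the other cell types that a heart sample can hold did not pass the test. Of 10 ventricular muscle cell markers none rose and 4 fell, with sums of 88017 to 98288 CPM in Sham WT and 80095 to 84882 in TAC WT, and none was higher with DESeq2 or at an unadjusted p under 0.05. Of the 5 tested atrial markers 3 rose (Nppa, Myl1 and Dkk3), 1 fell (Stard10) and Myl4 did not pass. The atrial list summed to 374 to 597 CPM in Sham WT and 2916 to 4874 in TAC WT. Nppa is also a stress gene, and Myl1 is also on the skeletal muscle list. Of 10 endocardial and lymphatic markers 1 rose and none fell, with 2 lower at an unadjusted p under 0.05 and none with DESeq2. Among the 12 genes that mark smooth muscle cells or pericytes, 1 rose and 2 fell, and their sums of 1748 to 1989 CPM in Sham WT and 1517 to 1911 in TAC WT overlapped. Of 7 Schwann cell and neuronal markers none rose, also with DESeq2 and at an unadjusted p under 0.05, and 2 fell, of 6 epicardial markers 1 rose and 1 fell, and of 5 skeletal muscle markers 2 rose and 1 fell. Among untested skeletal muscle genes, TAC WT 4 stood apart with Myh4 at 7.72 CPM, Tnnc2 at 2.94, Actn3 at 1.29 and Pvalb at 1.07. Elsewhere these had at most 0.200, 0.315, 0.229 and 0.123 CPM, and Myh1 and Myh2 had at most 0.137 CPM in any library. The median of the 5 tested markers was 1.10 in TAC WT 4 against -0.27, -0.18 and 0.22 in TAC WT 1 to 3. Whether skeletal muscle entered this library was not tested. No marker was called by edgeR among 8 of neutrophils and mast cells, 8 of lymphocytes, 5 of adipocytes and 8 of erythroid cells. At an unadjusted p under 0.05, 1 lymphocyte marker was higher and 1 adipocyte marker lower, and DESeq2 called 1 adipocyte marker lower. Without TAC WT 2, 3 endocardial and 2 erythroid markers rose, without TAC WT 1, 3 epicardial markers fell, and the other counts of these marker lists moved by at most 1 when 1 library was left out. The erythroid sums overlapped, at 367 to 528 CPM in Sham WT and 332 to 719 in TAC WT.

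Families of genes were also formed from symbols alone, which gave 175 families of at least 10 tested members. In 105 of them some members rose and others fell, and in 9 no member changed. More than 30% of members rose in 6 families. These were annexins (Anxa, 6 of 11, with 1 that fell), collagens (Col, 17 of 36, with 1 that fell), TNF receptors (Tnfrsf, 6 of 15, with 1 that fell), heat shock 70 proteins (Hspa, 5 of 13, with 1 that fell), non-receptor tyrosine phosphatases (Ptpn, 5 of 15) and ADAMTS proteases (Adamts, 5 of 16, with 1 that fell). Annexins, proteins that bind membranes with calcium, rose by 0.64 (Anxa2, SE 0.12) and 0.62 (Anxa4, SE 0.08), and Anxa11 fell by 0.42 (SE 0.09).

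More than 30% of members fell in 5 families. Aldehyde dehydrogenases (Aldh) fell in 9 of 17 and rose in 2. Aldh2, which clears aldehydes in mitochondria, had 321, 318, 308 and 331 CPM in Sham WT and 229.7, 241, 230.3 and 224 CPM in TAC WT (log2 -0.46, SE 0.06, edgeR's adjusted p = 7.70e-05), and Aldh9a1 fell by 0.78 (SE 0.08). The fibroblast growth factors (Fgf) fell in 5 of 12 and rose in 1, the lipid transfer proteins (Stard) fell in 4 of 10 and the Prr symbols, which share a name and no common function, in 4 of 13, with 1 that rose. The Asb family, adaptors of ubiquitin ligases that are rich in muscle, fell in 6 of 16, and none rose. Asb15 had 65.3, 66.5, 65.4 and 65.5 CPM in Sham WT and 35, 47, 33.2 and 25.2 CPM in TAC WT (log2 -0.90, SE 0.13), Asb14 fell by 0.62 and Asb2 by 0.45. Klhl33, of the other large adaptor family in muscle, fell from between 22.6 and 31.5 CPM to between 5.73 and 10.1 CPM (log2 -1.86, SE 0.19).

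Relatives also changed in opposite directions. The pairs that follow were chosen after their values were seen. Lgals4, a galectin, had 74, 83.4, 67.9 and 74.7 CPM in Sham WT and 26, 26.8, 29 and 24.1 CPM in TAC WT (log2 -1.501, SE 0.09, edgeR's adjusted p = 5.09e-07), and its relative Lgals1 rose by 0.41 (SE 0.07). The water channel gene Aqp4 had 7.67, 5.18, 6.43 and 4.18 CPM in Sham WT and 0.957, 1.69, 1.06 and 1.36 CPM in TAC WT (log2 -2.22), whereas Aqp8 rose from between 0.505 and 1.6 CPM to between 4.23 and 8.09 CPM (log2 2.37). Fgf16, a growth factor of heart muscle, had 25.7, 25.7, 24 and 27.4 CPM in Sham WT and 9.92, 11.6, 9.18 and 9.7 CPM in TAC WT (log2 -1.35, SE 0.18), and Fgf6, known from skeletal muscle, rose from between 0.505 and 0.745 CPM to between 2.65 and 6.51 CPM (log2 2.85, SE 0.50). In each of these 3 pairs both genes were free of overlap between the groups.

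The matrix programme held such pairs too. Emilin2, an elastic fibre glycoprotein gene, had 75.7, 52.5, 59.5 and 51.1 CPM in Sham WT and 20.5, 23.6, 19.3 and 18.5 CPM in TAC WT (log2 -1.54, SE 0.14), against a rise of 0.73 for Emilin1. Ltbp1, which stores latent TGF-beta in the matrix, fell by 0.56 (SE 0.07), against the rise of Ltbp2 given above. The protease Adamts7 fell by 1.35 (SE 0.12) and Adamts1 rose by 1.22 (SE 0.21). The collagen VI chain Col6a6 fell by 1.71 (SE 0.28) and Col6a3 rose by 0.69 (SE 0.17), although the Col6a3 values of the groups overlapped. Thbs2 fell by 0.61 (SE 0.13) and Thbs4, a thrombospondin of the loaded heart, rose by 2.45 (SE 0.32).

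Pairs of signalling and regulatory genes split likewise. Tbx15 rose from between 0.629 and 1.69 CPM to between 6.08 and 8.01 CPM (log2 2.79, SE 0.33) while Tbx5 fell, and Etv4 and Etv5 rose by 1.84 and 0.70 while Etv1 fell. Vegfa, a growth factor of blood vessels, rose by 0.47 (SE 0.11) and Vegfb fell by 0.28 (SE 0.07). Ramp3 and Ramp1, partners of peptide receptors, went to 0.50 and -0.95, and the Wnt antagonists Sfrp1 and Sfrp5 to 0.67 and -2.09. Sfrp5 was in the lowest decile of tested genes by level, where the median was 0.359 CPM, so its estimate rests on low counts. The phosphatases Ppm1e and Ppm1k, the phosphate transporters Slc20a1 and Slc20a2 and the reticulons Rtn4 and Rtn2 also changed in opposite directions.

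**Figure D5:**
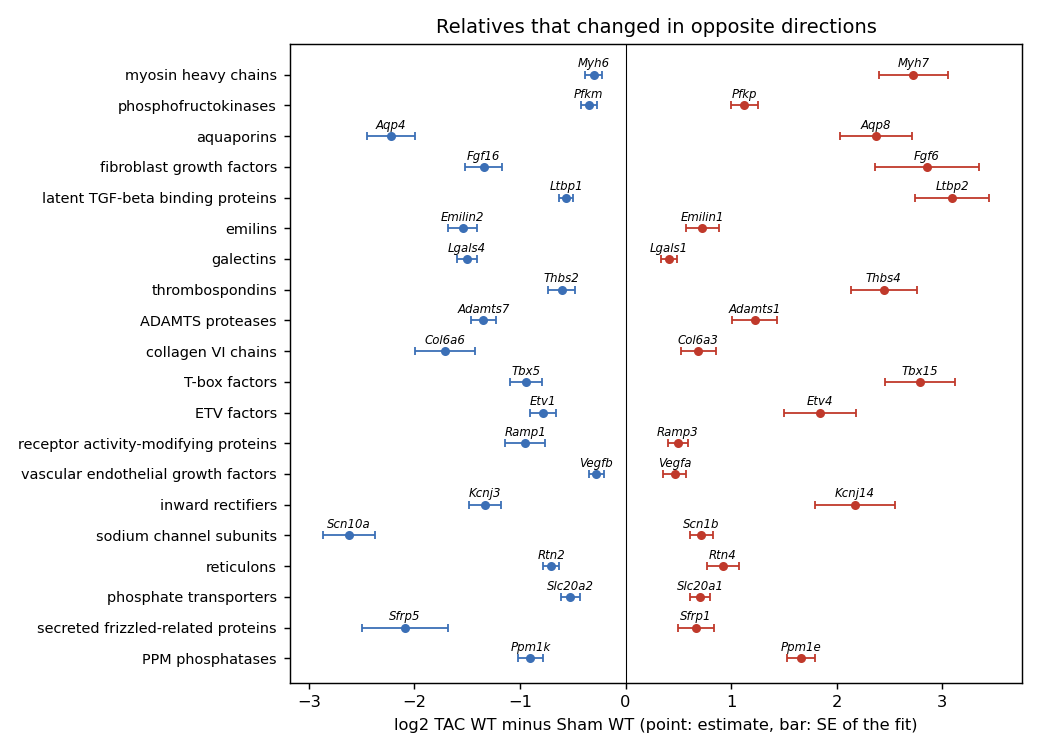
Log2 difference TAC WT minus Sham WT with the standard error of the fit for 20 pairs of relatives that changed in opposite directions, chosen after their values were seen. Lowered members (left) and raised members (right) differ in size, from Myh6 and Vegfb close to 0 to Ltbp2, Fgf6 and Tbx15 at the far right.

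Tight changes of differing size ranked among the smallest p-values. Plekho1, whose product binds membranes and actin-capping protein, had 48.6, 47.3, 51.9 and 49.9 CPM in Sham WT and 96.2, 90.6, 87.2 and 100.9 CPM in TAC WT, a log2 difference of 0.92 with an SE of 0.06 (edgeR adjusted p = 5.09e-07). Both groups lay within narrow ranges. Others of this kind were the carnitine and ergothioneine transporter Slc22a4 (log2 1.57), the scaffold gene Cnksr1 (1.598), Nlrc3 (2.05), a gene of innate immune sensing, Mafk (1.02), a small Maf transcription factor, and the prostaglandin receptor Ptger4 (1.25), with SE from 0.09 to 0.16. On the lower side were the muscle chloride channel gene Clcn1, with 13.2, 15.1, 14.6 and 15.3 CPM in Sham WT and 2.62, 4.34, 4.46 and 4.89 CPM in TAC WT (log2 -1.84, SE 0.14), and the connexin gene Gja3 at -0.94 (SE 0.08).

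Long noncoding genes leaned downward. Of 1092 tested, 53 rose (4.85%) and 131 fell (12%), with a median of -0.12, against 1422 that rose and 1375 that fell of 13460 protein-coding genes (median 0.01). The most abundant of those that rose was Bc1, a small cytoplasmic RNA known from neurons, which had 66.7, 77.8, 81.8 and 80.2 CPM in Sham WT and 255, 331, 230.3 and 286 CPM in TAC WT (log2 1.85, SE 0.12, edgeR's adjusted p = 5.28e-07). H19, an imprinted RNA, fell from between 15.1 and 28.7 CPM to between 6.94 and 11.5 CPM (log2 -1.25, SE 0.24). Mhrt, which lies antisense to Myh7, fell from between 88.9 and 105 CPM to between 48.6 and 68.8 CPM (log2 -0.68, SE 0.12) while Myh7 rose. Gm13054, antisense to Nppa, rose by 3.15 (SE 0.33), and Gm29773, which lies on chromosome 8 from 123896273 to 123900620 beside Acta1 (123891769 to 123894751) and overlaps Nup133, rose from between 0.0857 and 0.115 CPM to between 2.39 and 5.63 CPM (log2 5.29). Cryab with Hspb2 and Pln with Cep85l are other overlapping pairs. Because the sources used here do not state whether counting used strand, reads of an antisense gene and its partner cannot be told apart.

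Some changed genes lay side by side. Among 9263 pairs of adjacent protein-coding genes no more than 50000 bases apart, both rose in 119 (1.28%), both fell in 144 (1.55%), and the members went in opposite directions in 158 (1.71%). Of all tested protein-coding genes 10.6% rose and 10.2% fell, so some such pairs arise without any link between neighbours. An excess of pairs was not tested. One pair that rose was Cplx3 and Lman1l on chromosome 9. Cplx3, a regulator of transmitter release, had 0 counts in all 4 sham libraries and 52 in the TAC libraries (11 to 15 each), at least 17.4-fold higher when the sham group is given 3 counts. Lman1l, a lectin gene, had 1.28, 1.2, 0.914 and 1.14 CPM in Sham WT and 8.58, 8.96, 8.98 and 11.1 CPM in TAC WT (log2 3.05, SE 0.23, edgeR's adjusted p = 3.04e-06), and Ulk3 nearby rose by 0.75 (SE 0.11). Nppb and Nppa on chromosome 4 formed another such pair. Among lowered neighbours were the muscle kinase genes Sbk2 and Sbk3 on chromosome 7: Sbk2 had 8.68, 8.22, 6.6 and 7.19 CPM in Sham WT and 1.86, 2.09, 2.83 and 1.4 in TAC WT (log2 -1.90), and Sbk3 had 9.54, 5.73, 9.74 and 7.7 CPM in Sham WT and 0.847, 2.19, 0.738 and 1.69 in TAC WT (log2 -2.60). All 4 TAC values of both kinase genes lay below all 4 sham values.

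The TAC libraries varied more among themselves than the sham libraries. The median SD of log2 CPM over genes was 0.114 in Sham WT and 0.155 in TAC WT, and the SD was larger in TAC WT for 66.5% of tested genes, 72.0% of those that rose and 75.3% of those that fell. The libraries also differed in how far they had moved. Over the genes that rose, the median difference from the sham mean was 0.54 in TAC WT 1, 0.40 in TAC WT 2, 0.47 in TAC WT 3 and 0.56 in TAC WT 4, and over the genes that fell it was -0.50, -0.36, -0.48 and -0.58. TAC WT 4 had the highest value of the 4 TAC libraries for 640 of the 1496 genes that rose and the lowest for 721 of the 1555 that fell. TAC WT 2 had the lowest value for 674 of the genes that rose and the highest for 822 of those that fell. These genes were chosen by the calls, so their medians describe how the 4 libraries differ and carry no test. In both directions TAC WT 2 lay closest to sham and TAC WT 4 farthest. TAC WT 4 was also the library with the skeletal muscle genes given above, whose part in this was not tested.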

How the data were processed

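RNA from 12 mouse heart libraries had been sequenced, and 8 of them, 4 per group, were compared. The authors deposited raw counts per gene record and library, without normalization. Per the submitters' processing notes, which give no roles, the build was GRCm38 and the tools included STAR and featureCounts 1.6.4. The sources used here do not give the strand setting or annotation release. Gene names, positions and classes came from the GENCODE annotation of GRCm38, which matched 54079 of the 54146 records.

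Counts of all 12 libraries (3 groups) were fitted in 1 edgeR 4.0.16 quasi-likelihood model in R 4.3.3 with TMM scaling and edgeR's default low-count filter, and the contrast TAC WT minus Sham WT was tested over 15477 genes with Benjamini-Hochberg adjustment (threshold 0.05). The common biological coefficient of variation was 0.113. The script was tested on simulated counts. Library shares were compared with exact two-sided permutation tests. Named genes were the 15 highest and lowest by fold change (at least 1 CPM), by change in mean CPM and by p, up to 4 called members per family or list, members against the majority, genes at 0 in 1 group and all cell type markers. Others were chosen after their values were seen. A few genes that the rule would name are not reported here. The 48 lists (32 pathway, 15 cell type and 1 handling list) and the 12 motifs were chosen with earlier results of these data known. Alternatives were DESeq2 1.42.0, limma 3.58.1 (voom), 2 other scalings, 2 other filters, the 8 wild-type libraries alone, 1 surrogate variable (sva 3.50.0), removal of GC and length trends, a 1.5-fold minimum and removal of each library.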

Additional observations from a re-analysis of the deposited data

Results flagged for a closer look

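In groups of 4 libraries, a library was marked where its gap to the nearest other library was above Dixon's 95% critical share of the group's range. Chance marks about 1 in 20 groups, and 22 of 418 were marked here. In Sham WT, library 1 had the highest Kcnq1 (52.8 CPM, others at most 42.6), Pln (5958, others at most 5557) and Vim (268, others at most 242), and its sarcomere share was 10.9% of counts against 9.86 to 9.98% in the others. Library 2 had the highest Pdk4 (315 CPM, others 124 to 149) and Gm11942 (27.7, others 13.6 to 15.9). Library 3 had the highest Slc7a5 (7.54 CPM) and the lowest Sars (65.9) and Crhr2 (35.2). Library 4 had the highest Itga5 (78.6 CPM) and Mhrt (105) and the lowest Chac1 (1.43).

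In TAC WT, library 1 had the lowest Ier5 (60.004 CPM, others 92.9 to 99.1). Library 2 had the highest Crhr2 (21.5 CPM) and the lowest Maff (17.3). Library 3 had the highest Hsp90aa1 (264 CPM, others 193 to 202) and Atf5 (97.0, others 84.1 to 85.7). Library 4 had the highest Timp1 (56.1 CPM, others 6.38 to 11.9), Lman1l (11.1) and Ulk3 (34.4) and the lowest Aldh9a1 (23.1) and Cep85l (20.5).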

How the results depend on the processing

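Under the alternatives that tested the same question, the counts stayed within 1.5 times of the 1496 genes that rose and the 1555 that fell. Without 1 library they were lowest, at 1119 up and 1132 down, without TAC WT 1, and highest without TAC WT 2, where 1780 fell. Against a 1.5-fold minimum, 173 genes rose and 133 fell. With mitochondrially encoded genes left out of the total, TAC WT minus Sham WT was -1.05 percentage points for the 10 highest genes, 0.0971 for the 50 highest and 0.0638 for the 500 highest (both reversed), 2.87 for stress genes, -0.514 for sarcomere genes and -0.0886 for long noncoding genes, and the effective number of genes by Shannon entropy differed by 50.1. No paired analysis was possible because the labels carry no replicate numbers that the groups share: the numbers 1 to 4 name the libraries of a group in accession order. Low counts limited the rare genes, since Cplx3 rested on 52 counts. The cause of these differences was not tested, except that the denominators differ by construction.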

Other observations

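Several gene groups outside the lists above changed as well. Dio2, whose enzyme activates thyroid hormone, had 1.93, 2.21, 2.29 and 1.61 CPM in Sham WT and 14.9, 9.23, 9.63 and 14.7 CPM in TAC WT (log2 2.58, SE 0.25, edgeR's adjusted p = 1.34e-05). The stress peptide receptor gene Crhr2 had 37.6, 37.3, 35.2 and 37.2 CPM in Sham WT and 18.5, 21.5, 18.3 and 18.6 CPM in TAC WT (log2 -0.94, SE 0.11), and the orphan receptor gene Gpr22 fell from between 43.6 and 62.5 CPM to between 8.92 and 17.6 CPM (log2 -1.97, SE 0.21). Mylk4, a kinase gene of the myosin light chain kinase family, fell from between 174 and 239 CPM to between 38.1 and 72.7 CPM (log2 -1.75, SE 0.23). Each of these 4 genes had all its TAC values on 1 side of all its sham values. Serpinb1c, a serpin gene, had 0.387, 0.515, 0.600 and 0.587 CPM in Sham WT and 10.8, 7.97, 4.96 and 9.26 CPM in TAC WT (log2 3.98, SE 0.35).

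The largest fall among the genes with the smallest p was that of Gm11942, a processed pseudogene on chromosome 4 (32964888 to 32965232, GRCm38). It had 13.6, 27.7, 15.9 and 13.6 CPM in Sham WT and 0.0820, 0.0616, 0.354 and 0.147 CPM in TAC WT (log2 -6.74, or -7.50 without TAC WT 3, SE 0.36, edgeR's adjusted p = 2.10e-07). It is nearly identical to the ribosomal protein gene Rplp1 and to Gm10073, so its counts depend on how reads of the copies were assigned. Rplp1 was at 286 to 302 CPM in Sham WT and 304 to 368 in TAC WT and was not called (log2 0.18, edgeR adjusted p = 0.0777), and Gm10073 rose from between 0.115 and 1.14 CPM to between 1.48 and 1.91 CPM (log2 1.43). Read assignment, and any genetic difference between the mice of the groups at this locus, were not tested, so the value need not be a response to TAC.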
